A study of Mus musculus with 16 samples.

Results

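Expression of 10 genes of steroid synthesis and inactivation was followed in newborn ovaries that lacked Runx1, Foxl2 or both. The 10 genes were Star, Cyp11a1, Fdx1, Hsd3b1, Cyp17a1, Hsd17b1, Hsd17b3, Akr1c18, Srd5a1 and Cyp11b1. They were listed by function, with earlier results of these data known. Of these, 9 had a probe set that the annotation pairs with that gene alone, out of 18193 genes measured in the same way. Srd5a1, a 5-alpha-reductase gene, was not analysed here. The study asked what RUNX1 and FOXL2, transcription factors of the pre-granulosa cells that support the germ cells, each contribute to the identity of the fetal ovary. Whole ovaries were profiled at postnatal day 0, separated from the mesonephros, with 1 ovary for each array and 4 ovaries for each of 4 genotypes.

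The double knockout (DKO) ovaries were Runx1-/f, Foxl2-/- and Sf1-cre+/Tg. The Runx1 KO ovaries were Runx1-/f and Sf1-cre+/Tg with both Foxl2 alleles intact. The Foxl2 KO ovaries were Runx1+/f and Foxl2-/- with no Cre transgene, and the control ovaries were Runx1+/f with both Foxl2 alleles and no Cre transgene. A floxed Runx1 allele was therefore present in every ovary. Sf1-cre is driven by the promoter of Nr5a1, which is active in somatic cells of the gonad and in the adrenal cortex, and only the DKO and Runx1 KO ovaries carried it, so that loss of Runx1 and presence of the transgene cannot be told apart. The Foxl2 null allele was germline and not restricted to the gonad. In RNA of a whole ovary, fewer cells of a type and less RNA per cell cannot be told apart.

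Steroid synthesis begins when the STAR protein brings cholesterol into the mitochondrion, where CYP11A1, fed with electrons by ferredoxin (FDX1), cuts it to pregnenolone. The 3-beta-hydroxysteroid dehydrogenases turn pregnenolone into progesterone, CYP17A1 leads on to androgens, and 17-beta-hydroxysteroid dehydrogenases complete testosterone in the testis (HSD17B3) or estradiol in granulosa cells (HSD17B1). AKR1C18 removes progesterone by reducing it to an inactive alcohol, and CYP11B1 makes glucocorticoid in the adrenal cortex. In the mouse ovary, theca cells form as follicles grow after birth.

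The 250 bases upstream of the start are shown for the 3 genes that differed from control in at least 1 knockout group. The start used for Hsd17b3 lay inside its RefSeq gene, which reaches chr13:64089262, so part of that stretch falls within the gene. The sequences were taken from RefSeq on GRCm38.p6, which had a promoter entry for 6 of the 10 genes. They read 5′ to 3′ on the strand of the gene, all 3 on the minus strand, at chr3:98859795-98860044 for Hsd3b1, chr13:4150647-4150896 for Akr1c18 and chr13:64089202-64089451 for Hsd17b3. Capitals mark a match on either strand to the core letters of RUNX sites (TGTGGT or TGCGGT), forkhead sites (TAAACA) or NR5A sites (AAGGTCA or AAGGCCA).
Hsd3b1: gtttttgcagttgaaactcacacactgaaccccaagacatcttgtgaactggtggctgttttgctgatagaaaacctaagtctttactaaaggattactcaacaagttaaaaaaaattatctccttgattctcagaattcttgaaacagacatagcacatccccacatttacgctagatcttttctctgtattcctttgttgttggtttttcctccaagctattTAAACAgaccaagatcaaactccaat
Akr1c18: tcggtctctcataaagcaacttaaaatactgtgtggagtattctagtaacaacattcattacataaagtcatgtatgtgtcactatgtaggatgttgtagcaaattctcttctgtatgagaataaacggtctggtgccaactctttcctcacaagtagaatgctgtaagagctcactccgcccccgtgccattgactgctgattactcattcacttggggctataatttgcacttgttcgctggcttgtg
Hsd17b3: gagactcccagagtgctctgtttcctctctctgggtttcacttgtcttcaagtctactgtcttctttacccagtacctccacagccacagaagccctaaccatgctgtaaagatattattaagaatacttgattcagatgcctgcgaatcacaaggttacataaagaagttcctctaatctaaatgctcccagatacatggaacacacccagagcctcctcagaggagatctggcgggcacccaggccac
Only the Hsd3b1 stretch held a match among these 3, a forkhead word on the gene's strand from 26 to 21 bases before the start, which overlapped no other match. Of 32851 RefSeq promoter stretches of the same length, 12% held the forkhead word, 18.6% a RUNX word and 9.09% an NR5A word. Such words are a description of the letters in this window and say nothing of binding.

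Values are array intensities on a linear scale, set by the authors to the same trimmed mean on every array. Differences between groups are in log2 of the intensity plus 16, with the moderated standard error, and a gene was called at a limma adjusted p under 0.05 over all genes. The median intensity of an array ran from 134 to 177. Foxl2 intensities were 484 to 889.7 in Foxl2 KO and 569.8 to 839 in DKO ovaries, against 2774 to 4241 in controls. Runx1 was at 1701, 1221, 932 and 2127 in Runx1 KO ovaries and 2111 to 2370.3 in DKO ovaries, against 2142 to 2359 in controls. The fourth Runx1 KO ovary and all DKO ovaries thus read close to control. Whether the probe set covers the floxed exon was not examined, so Runx1 signal does not check the genotype. Control replicate 4 stood apart in 6 erythroid genes, whose summed intensity was 14798 in it and at most 602 in any knockout ovary. Leaving out this ovary and Runx1 KO replicate 4 together, an alternative added after the data were seen, left the number of called members at 2, 3 and 2 in Runx1 KO, Foxl2 KO and DKO. Y-linked genes, which XX ovaries lack, gave a background level of 5.34 on the log2 scale (an intensity of 24.5), the median of 9 genes whose means ran from 4.51 to 8.30, a measure chosen after the values were seen.

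Expression of 2 of the 9 measured genes, Hsd3b1 and Akr1c18, fell in each knockout group, and Hsd17b3 rose in Foxl2 KO ovaries. In DKO ovaries 2 of 9 were called, both lower, where 2.13% of all genes were called and 0.857% called lower. In Runx1 KO ovaries 2 of 9 were called, both lower, where 0.121% of all genes were called and 0.0715% called lower. In Foxl2 KO ovaries 3 of 9 were called, 2 lower and 1 higher, where 1.52% of all genes were called, 0.704% lower and 0.813% higher. By limma, an unadjusted p under 0.05 was reached by 5 of 9 in DKO (12.4% of all genes), 2 of 9 in Runx1 KO (7.34%) and 4 of 9 in Foxl2 KO (11%). Ovaries of the 2 groups did not overlap for 4 members in DKO (7.61% of all genes), 3 of them lower (2.71%) and 1 higher (4.9%). They did not overlap for 2 members in Runx1 KO (3.97%), both lower (1.44%), and for 4 in Foxl2 KO (6.72%), 3 lower (2.23%) and 1 higher (4.49%). All 3 comparisons share the 4 control ovaries. The list was drawn up with earlier results of these data known, so the shares over all genes are a description and no test of the list. Among all genes, 7 (0.0385%) were called lower in each of the 3 comparisons, and Hsd3b1 and Akr1c18 were 2 of them. The median log2 difference of the 9 genes was -0.06 in DKO, -0.07 in Runx1 KO and -0.07 in Foxl2 KO, beside 0.04, 0.04 and 0.05 over all genes.

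**Figure D1:**
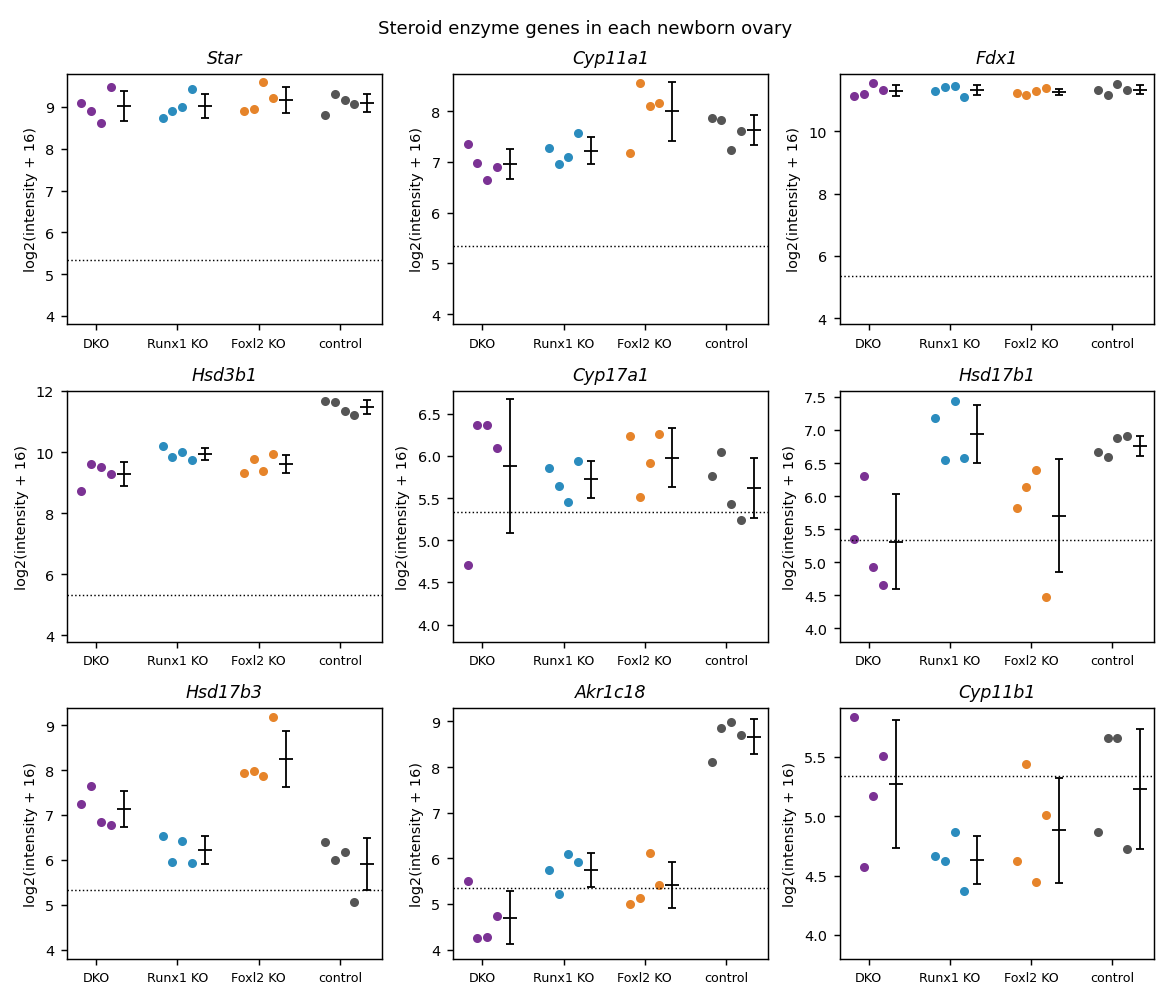
Levels of the 9 measured genes by ovary, as log2 of the intensity plus 16, in DKO, Runx1 KO, Foxl2 KO and control ovaries (4 points each, 1 per ovary; dash and bars, mean and SD; dotted line, background level of 5.34). All knockout points of Hsd3b1 and Akr1c18 lie below all control points, and the Foxl2 KO points of Hsd17b3 lie above those of every other group.

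Star and Fdx1, which serve the first step of the pathway, were close to control in every knockout group. Star intensities ran from 379 to 699 in DKO, 413 to 669.9 in Runx1 KO and 461 to 753 in Foxl2 KO ovaries, against 429 to 622 in controls, and the groups overlapped in every comparison. The log2 difference from control was -0.06 ± 0.21 in DKO, -0.07 ± 0.21 in Runx1 KO and 0.07 ± 0.21 in Foxl2 KO, with adjusted p of 0.943, 0.962 and 0.932. For DKO the 95% interval, -0.50 to 0.38, covers small changes either way. The 2 further probe sets of Star gave differences between -0.16 and 0.16 in the 3 comparisons, none of them called.

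Fdx1, the electron donor of mitochondrial P450 enzymes, had the narrowest spread of the list. Its intensity was 2219 to 2969 in DKO, 2175 to 2770.3 in Runx1 KO and 2296 to 2679.6 in Foxl2 KO ovaries, against 2287 to 2946 in controls. The differences were -0.03 ± 0.13 in DKO, -0.01 ± 0.13 in Runx1 KO and -0.07 ± 0.13 in Foxl2 KO, none called, and the 3 intervals together spanned -0.34 to 0.26.

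Cyp11a1, which encodes the side-chain cleavage enzyme, was not called in any comparison. Its intensities were 148, 109.7, 83.4 and 103 in DKO ovaries, 139, 108, 120.4 and 174 in Runx1 KO ovaries and 129, 359, 258 and 270.1 in Foxl2 KO ovaries, against 217, 209.9, 134 and 178 in controls. All DKO ovaries but 1 were below every control, 3 of the 4 Foxl2 KO ovaries were above every control, and each knockout group overlapped the controls. The difference was -0.66 ± 0.25 in DKO (adjusted p = 0.269), -0.41 ± 0.25 in Runx1 KO (adjusted p = 0.758) and 0.37 ± 0.25 in Foxl2 KO (adjusted p = 0.668). DKO and Foxl2 KO differed by -1.03 ± 0.25 (adjusted p = 0.221). The 2 further probe sets of Cyp11a1 lay near background and went opposite ways in DKO, at 0.69 ± 0.26 and -0.47 ± 0.32 against control, neither called. Between DKO and Foxl2 KO they read 0.29 ± 0.26 and -1.05 ± 0.32 in the same order, again neither called.

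Hsd3b1 encodes a 3-beta-hydroxysteroid dehydrogenase, the step from pregnenolone to progesterone, and fell in every knockout group. Its intensities were 402, 769, 712 and 606 in DKO ovaries, 1159, 896, 1004 and 829.9 in Runx1 KO ovaries and 619.8, 864, 652 and 972 in Foxl2 KO ovaries, against 3217, 3179, 2606 and 2347 in controls. The lowest control ovary was thus far above the highest knockout ovary. Hsd3b1 fell 4.55-fold in DKO (log2 -2.19 ± 0.20, adjusted p = 1.71e-05), 2.88-fold in Runx1 KO (-1.53 ± 0.20, adjusted p = 0.00382) and 3.63-fold in Foxl2 KO (-1.86 ± 0.20, adjusted p = 1.31e-04). The order of the group means was DKO, Foxl2 KO, Runx1 KO and control, lowest to highest. The DKO ovaries did not overlap the Runx1 KO ovaries (-0.66 ± 0.20), but the difference was not called (adjusted p = 0.196), and the DKO and Foxl2 KO ovaries overlapped (-0.33 ± 0.20, adjusted p = 0.995). The paralogs Hsd3b2, Hsd3b3 and Hsd3b5 were below background in every group, and Hsd3b6 was not analysed here. Whether the Hsd3b1 probe set also reads RNA of a paralog was not tested.

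The androgen branch held the only member that rose, in Foxl2 KO ovaries. Hsd17b3, which makes testosterone from androstenedione in the testis, had intensities of 136, 185, 98.6 and 93.3 in DKO ovaries, 76.4, 46.3, 69.9 and 45.3 in Runx1 KO ovaries and 229.6, 236, 216 and 563 in Foxl2 KO ovaries, against 68.2, 47.7, 56.6 and 17.7 in controls. The Foxl2 KO ovaries were above all others, the DKO ovaries lay between them and the controls without overlap on either side, and the Runx1 KO ovaries overlapped the controls. Hsd17b3 rose 5.02-fold in Foxl2 KO (log2 2.33 ± 0.32, adjusted p = 0.00105). The difference was 1.22 ± 0.32 in DKO (adjusted p = 0.0692) and 0.30 ± 0.32 in Runx1 KO (adjusted p = 0.868). DKO minus Foxl2 KO was -1.11 ± 0.32 (adjusted p = 0.432), and DKO minus Runx1 KO was 0.92 ± 0.32 (adjusted p = 0.307). Foxl2 KO replicate 4, at 563, was far above the other Foxl2 KO ovaries. Without it the Foxl2 KO difference was 2.02, still called, and the spread shared by all groups narrowed, so that the DKO difference of 1.22 was called (adjusted p = 0.0265).

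Cyp17a1, the enzyme that opens the androgen branch, was dim in all groups. It read 10.1 to 66.5 in DKO, 27.9 to 45.3 in Runx1 KO and 29.6 to 60.4 in Foxl2 KO ovaries, against 21.7 to 49.9 in controls. The differences were 0.26 ± 0.31 in DKO (adjusted p = 0.805), 0.11 ± 0.31 in Runx1 KO (adjusted p = 0.960) and 0.36 ± 0.31 in Foxl2 KO (adjusted p = 0.748). The 95% interval in Foxl2 KO ran from -0.30 to 1.03, so that sizeable changes were not detectable at this spread.

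Hsd17b1, which completes estradiol in granulosa cells, was lower in the groups without Foxl2 but did not pass the test. Its intensities were 24.7, 63.1, 14.6 and 9.20 in DKO ovaries, 128, 77.5, 158 and 79.8 in Runx1 KO ovaries and 40.4, 54.6, 67.9 and 6.25 in Foxl2 KO ovaries, against 85.7, 80.4, 101 and 104 in controls. Every DKO and Foxl2 KO ovary was below every control, and the Runx1 KO ovaries overlapped the controls. The difference was -1.45 ± 0.39 in DKO (adjusted p = 0.0724), 0.18 ± 0.39 in Runx1 KO (adjusted p = 0.945) and -1.05 ± 0.39 in Foxl2 KO (adjusted p = 0.288). DKO minus Runx1 KO was -1.63 ± 0.39 (adjusted p = 0.0636), again without overlap. The DKO mean lay below background, and with the DKO ovaries set to no less than background the fall of the means from control was 2.26-fold. Without Foxl2 KO replicate 4 or without DKO replicate 2 the DKO difference from control was called (adjusted p = 0.0203 and 0.0218), as was that from Runx1 KO (0.0170 and 0.0243).

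Akr1c18, the 20-alpha-hydroxysteroid dehydrogenase that inactivates progesterone, had the largest fall of the 9 genes. Its intensities were 29.6, 3.11, 3.52 and 10.9 in DKO ovaries, 38, 21.4, 52.2 and 44.7 in Runx1 KO ovaries and 16, 18.8, 53.4 and 26.7 in Foxl2 KO ovaries, against 259.9, 447, 489 and 401 in controls. The lowest control was well above the highest knockout ovary, and 3 DKO, 1 Runx1 KO and 2 Foxl2 KO ovaries were at or under background. The fall was 7.53-fold in Runx1 KO (log2 -2.91 ± 0.31, adjusted p = 7.29e-04) and 9.50-fold in Foxl2 KO (-3.25 ± 0.31, adjusted p = 3.07e-05). In DKO the fitted difference was -3.96 ± 0.31 (adjusted p = 3.09e-06). The DKO mean of 4.70 lay below background, and with the DKO ovaries set to no less than background the fall of the means was 9.71-fold. With signal this near background the fitted size depends on the offset and the floor. Over the settings tried it ran from -5.42 to -2.85 in DKO, -3.39 to -2.32 in Runx1 KO and -3.92 to -2.51 in Foxl2 KO, called under each setting that tested Akr1c18. The DKO ovaries overlapped both single knockout groups. The fitted difference was -1.05 ± 0.31 against Runx1 KO (adjusted p = 0.160) and -0.71 ± 0.31 against Foxl2 KO (adjusted p = 0.889). With the DKO ovaries set to no less than background, their mean was 1.29-fold lower against Runx1 KO and 1.02-fold lower against Foxl2 KO. The single knockout ovaries were left as read, though 1 Runx1 KO and 2 Foxl2 KO ovaries were also at or under background. These 2 folds thus rest on a floor set for 1 group only and do not show that the groups are alike.

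Cyp11b1, an enzyme of the adrenal cortex, had a mean below background in every group. It read 7.79 to 41.2 in DKO, 4.68 to 13.2 in Runx1 KO and 5.78 to 27.5 in Foxl2 KO ovaries, against 10.4 to 34.6 in controls, with no call. No fold is given for it.

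**Figure D2:**
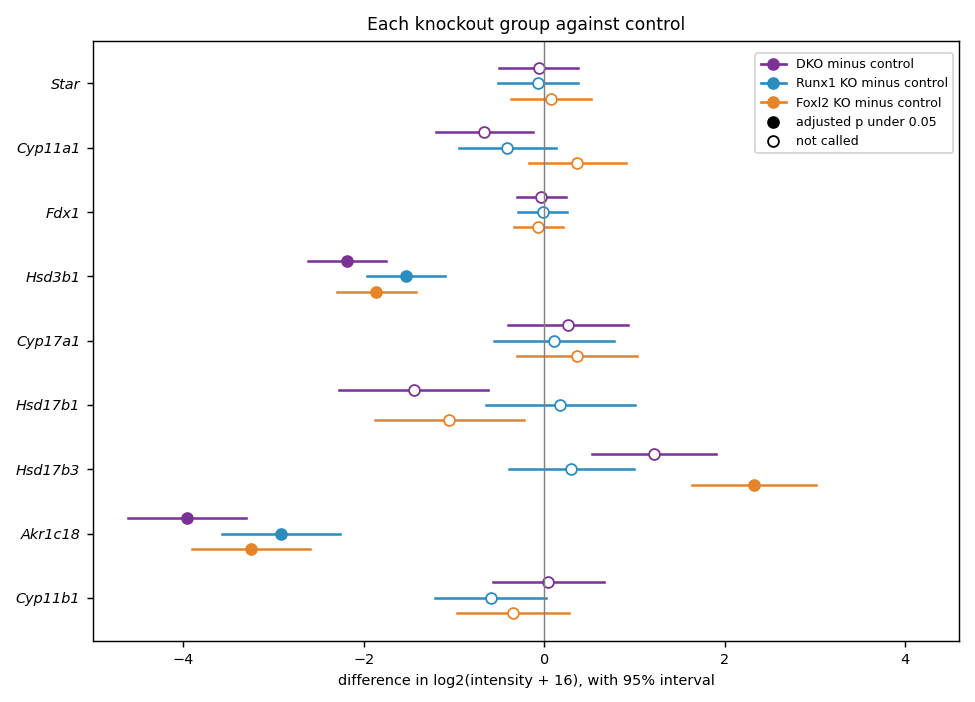
Difference of each knockout group from control for the 9 measured genes, in log2 of the intensity plus 16, with 95% intervals (filled, limma adjusted p under 0.05; open, not called; 4 ovaries per group). Hsd3b1 and Akr1c18 are filled in all 3 comparisons and Hsd17b3 in Foxl2 KO only, while Fdx1 and Star sit at 0.

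No member was called between DKO and Foxl2 KO ovaries, where 0.0605% of all genes were called, or between DKO and Runx1 KO ovaries, where 0.989% were. By limma, an unadjusted p under 0.05 was reached by 3 of 9 against Foxl2 KO and by 5 of 9 against Runx1 KO, beside 5.38% and 9.43% of all genes. The 3 were Cyp11a1, Hsd17b3 and Akr1c18, and the 5 were Hsd3b1, Hsd17b1, Hsd17b3, Akr1c18 and Cyp11b1. Of these, Akr1c18, Hsd17b1 and Cyp11b1 had DKO means below background, where the size of a difference depends on the background level and, for Cyp11b1, none is given. The DKO ovaries did not overlap the Foxl2 KO ovaries for Hsd17b3, lower in DKO (1.79% of all genes, and 3.57% in either direction). They did not overlap the Runx1 KO ovaries for Hsd3b1 and Hsd17b1, lower in DKO (2.71%), and for Hsd17b3, higher in DKO (3.22%, and 5.93% in either direction).

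The DKO difference was set beside the sum of the 2 single knockout differences. For Hsd3b1 the sum was -3.39 and the measured DKO difference -2.19, an interaction of 1.20 ± 0.29. For Akr1c18 the sum was -6.16 and the DKO difference -3.96, an interaction of 2.20 ± 0.43. A sum of -6.16 would put Akr1c18 at 2.50 on a scale whose lowest possible value is 4, so the interaction of Akr1c18 cannot be told apart from the floor of the measurement. For Hsd3b1 the level at the sum, 8.08, lay above background. For Hsd17b3 the sum was 2.63 and the DKO difference 1.22, an interaction of -1.41 ± 0.46. None was called (adjusted p = 0.521 for Hsd3b1, 0.257 for Akr1c18 and 0.822 for Hsd17b3), where 0.011% of all genes were, and 4 of 9 members, with Cyp11b1, reached an unadjusted p under 0.05 by limma, beside 5.33% of all genes. With an offset of 50 in place of 16 the interaction of Akr1c18 was called (1.97 ± 0.27, adjusted p = 0.0113).

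**Figure D3:**
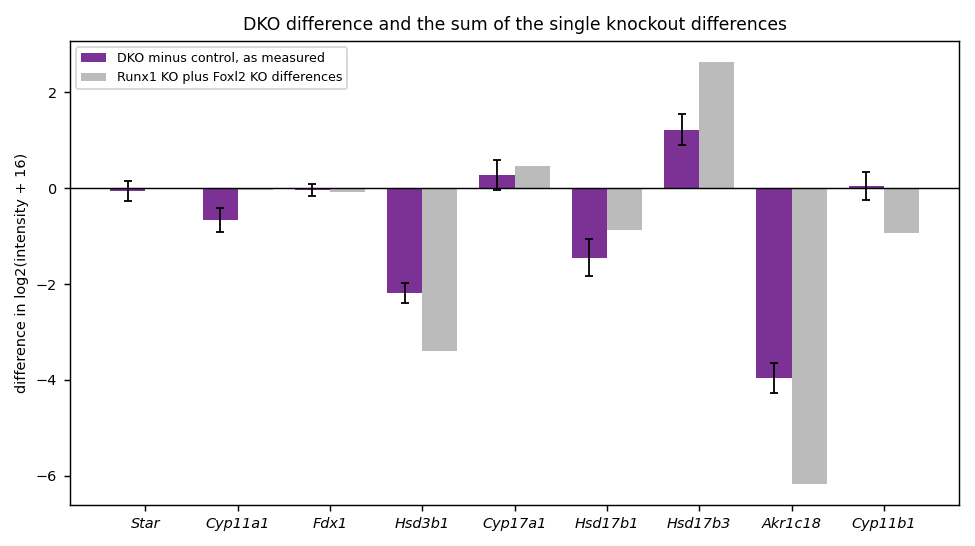
DKO minus control difference of each gene as measured (bars with SE) beside the sum of the Runx1 KO and Foxl2 KO differences (grey), in log2 of the intensity plus 16. For Hsd3b1, Akr1c18 and Hsd17b3 the measured bar is shorter than the sum, which for Akr1c18 lies below what the scale can hold.

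Among 25 other measured genes of steroid metabolism, 2 were called lower in DKO and 2 in Foxl2 KO ovaries, and none in Runx1 KO ovaries. The shares of all genes called lower were 0.857%, 0.704% and 0.0715%, with the groups in the same order. The median log2 difference of the 25 genes was 0.14 for DKO, 0.09 for Runx1 KO and 0.07 for Foxl2 KO, beside 0.04, 0.04 and 0.05 over all genes. The 2 genes were the same in both groups, Akr1c14, the 3-alpha-hydroxysteroid dehydrogenase that makes allopregnanolone, and Hsd17b7, an enzyme with roles in estradiol and cholesterol synthesis, read by a probe set whose name marks probes shared with other transcripts. Akr1c14 read 1347, 1876, 1671 and 1663 in DKO ovaries, 2709.8, 3273, 3338 and 2589 in Runx1 KO ovaries and 1861, 1802, 1424 and 2295 in Foxl2 KO ovaries, against 4162, 5447, 4719 and 4985 in controls. None of the knockout groups overlapped the controls. Akr1c14 fell by 1.55 ± 0.16 on the log2 scale in DKO (adjusted p = 3.52e-05) and by 1.39 ± 0.16 in Foxl2 KO (adjusted p = 1.59e-04), and the difference in Runx1 KO was -0.70 ± 0.16 (adjusted p = 0.170). Unlike any member, Akr1c14 was also called between DKO and Runx1 KO (-0.86 ± 0.16, adjusted p = 0.0133). Hsd17b7 fell by 1.18 ± 0.22 on the log2 scale in DKO (adjusted p = 0.00813) and by 1.09 ± 0.22 in Foxl2 KO (adjusted p = 0.0184). Cyp19a1, the aromatase gene, was not analysed here.

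Akr1c14 and Akr1c18 are neighbours in a row of Akr1c genes on chromosome 13, of which 8 were measured. The other genes of the row were looked at after the values of these were known. Akr1c19, an aldo-keto reductase of the same row, read 85.4, 60.1, 67.2 and 56.9 in DKO ovaries, 160.0, 106, 132 and 179.6 in Runx1 KO ovaries and 74.7, 109, 75.7 and 80.4 in Foxl2 KO ovaries, against 232, 389, 262 and 285 in controls. No knockout ovary reached the lowest control. It fell by 1.87 ± 0.18 on the log2 scale in DKO (adjusted p = 2.73e-05) and by 1.60 ± 0.18 in Foxl2 KO (adjusted p = 1.89e-04), and the difference in Runx1 KO was -0.94 ± 0.18 (adjusted p = 0.0729). Akr1c13, between Akr1c18 and Akr1c19, read 77.5 to 129 in DKO ovaries, 154 to 199 in Runx1 KO ovaries and 87.1 to 243 in Foxl2 KO ovaries, against 185 to 239 in 3 controls and 1148 in control replicate 3. The DKO ovaries lay below every control, at -1.40 ± 0.45 (adjusted p = 0.152), and no comparison of Akr1c13 was called. Akr1c12, Akr1c6 and Akr1c20 were below background in controls, and Akr1c21, the last of the row, differed from control by at most 0.21 ± 0.28. Of the 8 genes, 3 were called lower in DKO, 1 in Runx1 KO and 3 in Foxl2 KO, beside 0.857%, 0.0715% and 0.704% of all genes. These counts include Akr1c18 and Akr1c14, which prompted the look at the row. These genes are close relatives, and how far their probe sets share signal was not tested.

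**Figure D4:**
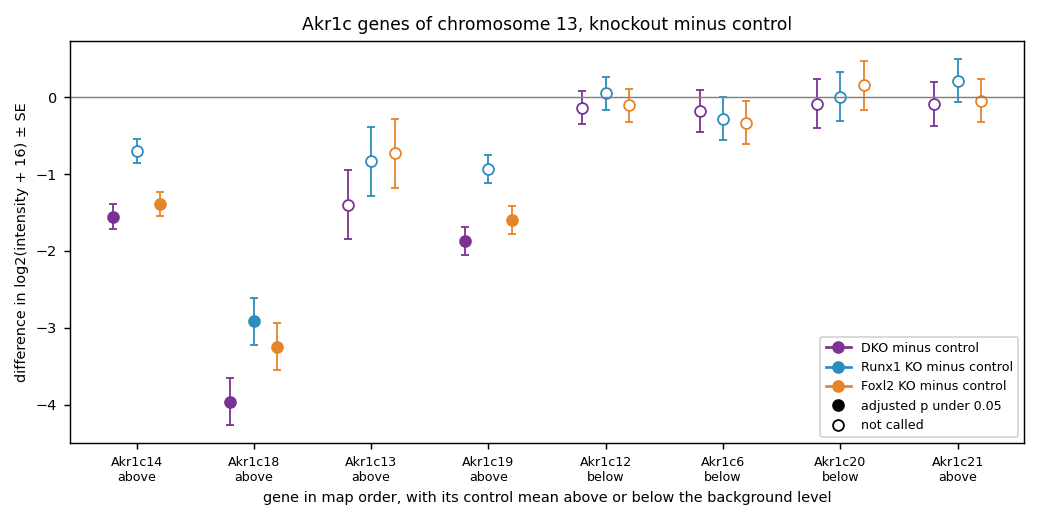
Difference from control of the 8 measured Akr1c genes of chromosome 13 in map order, in log2 of the intensity plus 16 ± SE (filled, limma adjusted p under 0.05; open, not called; the words under a name say whether its control mean lay above or below background). Akr1c14, Akr1c18 and Akr1c19 are filled in DKO and Foxl2 KO, and Akr1c21, above background, stays near 0.

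None of the 13 measured genes of cholesterol uptake and transport was called against control in any knockout group. The smallest p belonged to Gramd1b, a cholesterol transfer gene, at 0.56 ± 0.19 in Runx1 KO (adjusted p = 0.490). Of 19 measured regulators of steroid synthesis, 2 rose and 2 fell in DKO, 1 rose and 2 fell in Foxl2 KO and none was called in Runx1 KO. The shares of all genes called in either direction were 2.13%, 1.52% and 0.121%. The nuclear receptor gene Nr5a2, active in granulosa cells, fell to 55.8 to 90.6 in DKO and 47.0 to 68.1 in Foxl2 KO ovaries, against 684 to 994 in controls (adjusted p = 1.91e-06 for DKO and 7.66e-07 for Foxl2 KO). Nr0b1, a repressor of steroidogenic genes, rose to 1041 to 1448 in DKO and 825 to 1209 in Foxl2 KO ovaries, against 164 to 284 in controls (adjusted p = 4.81e-06 for DKO and 3.99e-05 for Foxl2 KO). Nr5a1, the steroidogenic factor whose promoter drives the Cre transgene, rose to 1396 to 1824 in DKO ovaries (adjusted p = 8.63e-05) and read 858 to 1324 in Runx1 KO (adjusted p = 0.0718) and 762 to 903 in Foxl2 KO ovaries (adjusted p = 0.332), against 570.1 to 773 in controls. The remaining regulator called was Foxl2 itself, the gene deleted in DKO and Foxl2 KO ovaries.

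Markers of other steroid-making cells were read beside the members. Of all genes, 2.13% were called in DKO, 0.121% in Runx1 KO and 1.52% in Foxl2 KO. Of 8 measured Leydig cell markers, 2 rose in DKO, Nr5a1 and Agt, and none was called in either single knockout. The defining markers Insl3 and Lhcgr were not analysed here. The summed intensity of the 8 was 6824 to 8610.2 in DKO, 7231 to 8945 in Runx1 KO and 5984 to 7695 in Foxl2 KO ovaries, against 5634 to 7589 in controls, and each knockout group overlapped the controls. By their score, the mean over genes of the log2 level relative to the mean of all arrays, the DKO ovaries (0.12 to 0.39) lay above the controls (-0.47 to -0.06), while the Runx1 KO (-0.39 to 0.19) and Foxl2 KO ovaries (-0.06 to 0.18) overlapped them. The score includes Nr5a1, which is also a Sertoli cell marker, and none was made without it. In DKO, Gramd1b, Vcam1, Gli1 and Pdgfra were higher and Ptch1 (-0.19 ± 0.18) and Inha (-0.23 ± 0.23) lower, none called. Agt, the angiotensinogen gene, read 148, 75.1, 34.2 and 17.8 in DKO ovaries and 14.1 to 40.4 in Foxl2 KO ovaries, against 4.29 to 9.05 in controls. Of 8 measured adrenal cortex markers, Nr0b1 alone was called, in DKO and Foxl2 KO. Their summed intensity was 1823 to 2494 in DKO, 846 to 1107 in Runx1 KO and 1725 to 2008 in Foxl2 KO ovaries, against 709 to 1168 in controls, and Agtr1b was below background in every group. Without Nr0b1, which is also a Sertoli cell marker, the sum of the other 7 was 782 to 1150.4 in DKO, 556 to 748 in Runx1 KO and 799 to 992 in Foxl2 KO ovaries, against 545 to 901 in controls, which each knockout group overlapped. DKO replicate 1 had the highest adrenal score of all arrays, 0.77, and also the highest Cyp11a1 and Cyp11b1 of its group, where the Cyp11b1 mean was below background. It was also the highest of its group for the Leydig (0.39), Sertoli (0.57) and mesonephric duct (0.60) scores. For the interstitial, pre-granulosa, oocyte and erythroid scores another DKO ovary was the highest. The same ovary had the lowest Hsd3b1 (402) and Cyp17a1 (10.1) of its group. The part of these cells in the levels of the members was not tested.

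By calls, the markers of the supporting cells moved mainly in the ovaries without Foxl2. The counts below stand beside 2.13% of all genes called in DKO, 0.121% in Runx1 KO and 1.52% in Foxl2 KO. Of 13 measured Sertoli cell markers, 7 rose in DKO, 1 in Runx1 KO and 5 in Foxl2 KO, with Nr0b1, Dhh, Sox9, Dmrt1 and Cst9 called in both groups without Foxl2, Fgf9 in DKO and Runx1 KO and Nr5a1 in DKO. Their summed intensity was 8125 to 8752 in DKO, 4848 to 5814 in Runx1 KO and 4518 to 6637 in Foxl2 KO ovaries, against 4583 to 5923 in controls, so that only the DKO sums stood clear of the controls. Their score was 0.36 to 0.57 in DKO, -0.35 to 0.02 in Runx1 KO and 0.02 to 0.33 in Foxl2 KO ovaries, each above the controls at -0.62 to -0.38. Amh and Gdnf were below background in every group. Of 13 measured pre-granulosa cell markers, 6 fell in DKO, none in Runx1 KO and 4 in Foxl2 KO, with Nr5a2, Foxl2, Esr2 and Kitl called in both groups without Foxl2 and Fst and Cdkn1b in DKO, where Cdkn1b (adjusted p = 0.0381) overlapped the controls. Fst was below every control in the single knockouts too, but was not called. Its difference was -1.18 ± 0.34 in Runx1 KO (adjusted p = 0.372) and -1.15 ± 0.34 in Foxl2 KO (adjusted p = 0.147). The summed intensity of the 13 pre-granulosa cell markers was 14027 to 15900 in DKO, 17346 to 22540 in Runx1 KO and 16512 to 18797 in Foxl2 KO ovaries, against 19542 to 25907 in controls. This list holds the deleted genes Foxl2 and Runx1, so the fall of Foxl2 is the genotype itself and no separate result. It is also part of the sums, with a median Foxl2 intensity of 698 in DKO and 788 in Foxl2 KO, against 3889 in controls. No sum without the deleted genes was made. None of 9 measured interstitial and theca progenitor markers and none of 13 oocyte markers was called in any knockout group, where the smallest p belonged to Wnt5a (0.58 ± 0.21 in DKO, adjusted p = 0.245) and Gdf9 (1.22 ± 0.52 in Runx1 KO, adjusted p = 0.625). Of 6 measured mesonephric duct markers, Pax8 alone was called, higher in DKO (2.23 ± 0.35, adjusted p = 0.00213) and in Foxl2 KO (1.74 ± 0.35, adjusted p = 0.0184), and none of the 6 erythroid genes was called. The summed intensity of the duct markers was 924 to 1158 in DKO and 704 to 880 in Foxl2 KO ovaries, above the controls at 308 to 560. In Runx1 KO ovaries it was 484 to 869, which overlapped the controls. The sums include Pax8, and none was made without it. The part of these cells in the levels of the members was not tested.

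The genes whose levels followed the called members most closely over the 16 arrays were found by Pearson correlation, as a description of arrays that differ by genotype. For Hsd3b1 they were Col8a1 (r = 0.925), Akr1c14 (r = 0.920) and Slc18a2 (r = 0.910). For Akr1c18 they were Col8a1 (r = 0.947), Tifa (r = 0.945) and Slc18a2 (r = 0.926), so that 2 of the 3 were shared. For Hsd17b3 they were Dixdc1 (r = 0.897), Stk32b (r = 0.888) and Prelp (r = 0.874). Col8a1, a short-chain collagen, fell by 4.88 on the log2 scale in DKO, 3.32 in Runx1 KO and 4.76 in Foxl2 KO ovaries relative to controls.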

How the data were processed

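RNA of 16 newborn ovaries, 4 for each of 4 genotypes, was amplified and hybridised by the authors to Affymetrix Mouse Genome 430 2.0 arrays. The deposited values are linear intensities per probe set, made with Affymetrix Expression Console 1.2 and every array was scaled to 1 common mean after trimming 2% at each end. The summarisation algorithm is not given in the sources used here, and the study itself tested log2 values from another program by one-way analysis of variance. No scan dates were used.

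Of 45101 probe sets, 34945 were paired with 1 gene in the platform annotation, 932 with several and 9160 with none, and 64 were control probe sets. Symbols were updated through the gene identifier to RefSeq (GRCm38.p6). The probe set with the highest mean stood for a gene, as the deposited table holds several for some genes, giving 18193 genes. An offset of 16 was added before log2. Group means of the 4 genotypes were estimated from all 16 arrays together in limma 3.58.1 under R 4.3.3 (statmod 1.5.0), by lmFit and then eBayes, giving 12 residual and 3.32 prior degrees of freedom, and 6 contrasts were tested. The interaction is DKO minus Foxl2 KO, less Runx1 KO minus control. Tests were two-sided, with Benjamini-Hochberg adjustment over all genes within a contrast. Errors beside differences are standard errors. Number of arrays limits the precision. No 2 arrays held identical values (correlation within groups 0.959 to 0.983).

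The members and gene lists were chosen with earlier results of these data known. Named besides the 10 members were Runx1 and Foxl2, up to 4 called genes of each list with the smallest p, or the 1 with the smallest p, and for each called member the 3 genes most correlated with it. Genes named to spell out counts of 5 or fewer, and Cst9, Dmrt1, Fgf9 and Kitl, were chosen after their values were seen. The script was tested on simulated data with known changes. Where a group mean lay below background, the difference of means was also taken with each array of that group set to at least the background level. That value takes no account of the spread and is no lower limit of the true fold.

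Alternatives covered scaling (equal array medians, quantile normalization), the offset (1 and 50, or a floor of 16), the probe sets (mean of all, or leaving out those shared among transcripts), a filter at the median level, the model (robust trended prior, array weights, replicate block, compared groups only, the methods' analysis of variance) and leaving out each array. The replicate numbers were not treated as pairs, since of 24 same-numbered pairs from different groups 1 had correlated deviations above 0.1, with a median of -0.0318.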

Additional observations from a re-analysis of the deposited data

Results flagged for a closer look

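Among 36 sets of 4 ovaries (9 genes in 4 groups), 2 had a value that stood far from the others relative to the range of its group, and chance gives such a value in about 1 of 20 sets. Hsd17b3 read 563 in Foxl2 KO replicate 4, against 216 to 236 in the other Foxl2 KO ovaries (gap over range 0.910). Cyp17a1 read 10.1 in DKO replicate 1, against 52.0 to 66.5 in the other DKO ovaries (gap over range 0.832). That ovary was also the lowest of its group for Hsd3b1 (402) and the highest for Akr1c18 (29.6), Cyp11a1 (148) and Cyp11b1 (41.2). Foxl2 KO replicate 4 was also the lowest of its group for Hsd17b1 (6.25).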

How the results depend on the processing

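The 7 called differences of Hsd3b1, Akr1c18 and Hsd17b3 against control stayed called in all 112 fits with 1 array left out. With arrays left out in turn, the members called numbered 2 to 2 in Runx1 KO, 3 to 3 in Foxl2 KO and 2 to 4 in DKO against control, 0 to 0 in DKO against Foxl2 KO, 0 to 1 in DKO against Runx1 KO and 0 to 0 for the interaction. Testing only genes above the median level kept just Star, Hsd3b1 and Fdx1 of the members. It left 1 called member, Hsd3b1, in each comparison against control, with Akr1c18 and Hsd17b3 among the genes not tested. A trended robust prior called 4 in DKO against control, adding Hsd17b1 and Hsd17b3 (adjusted p = 0.0480 and 0.0455), and 1, Hsd17b1, in DKO against Runx1 KO (0.0380). An offset of 50 called 1 in DKO against Runx1 KO, Hsd17b1 (0.0339), and 1 for the interaction, Akr1c18. The methods' analysis of variance was run here on the log2 values of the main fit, not on those the study tested. At an unadjusted p and 1.5-fold it called 4 in Foxl2 KO against control, adding Hsd17b1, 5 in DKO against control, 2 in DKO against Foxl2 KO, 4 in DKO against Runx1 KO and 4 for the interaction. No called difference of a member changed direction under these alternatives, and the cause of the changes in calls was not tested. The fitted DKO difference of Akr1c18, whose signal is near background there, ran from -5.42 to -2.85 with the offset or floor chosen, that in Runx1 KO from -3.39 to -2.32 and that in Foxl2 KO from -3.92 to -2.51. The replicate block gave 2, 3, 2, 0, 0 and 0 called members in the same order of comparisons and changed no call of a member. Over all genes it called 15, 220, 310, 7, 130 and 0, against 22, 276, 388, 11, 180 and 2 without it. Over all genes, the other alternatives but the analysis of variance called 6 to 27 in Runx1 KO, 175 to 329 in Foxl2 KO, 272 to 465 in DKO, 4 to 18 in DKO against Foxl2 KO, 104 to 248 in DKO against Runx1 KO and 0 to 3 for the interaction, and the analysis of variance called 510, 914, 1087, 402, 752 and 572. With 1 array left out these counts were 12 to 21, 183 to 294, 277 to 395, 6 to 16, 111 to 205 and 0 to 4. Cyp17a1, Cyp11b1, Hsd17b1 and Akr1c18 lie close to background in some or all groups, where signal over background limits what can be seen.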
